A study of Mus musculus with 64 samples.

Results

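The genes described here were 53 regulators of pre-mRNA splicing measured by RNA sequencing of mouse brain. They were chosen with earlier results of these data known, and taken by name, as every protein-coding gene whose symbol, matched through the Ensembl gene ID in GENCODE release M21, belongs to the Srsf, Tra2, Hnrnp, Ptbp, Rbfox, Nova, Celf, Elavl or Mbnl families. The annotation held 54 such genes, and 53 of them were found among the 18432 genes of the deposited table, whereas *Mbnl3* was not analysed here. The 53 comprised 11 Srsf, 2 Tra2, 20 Hnrnp, 3 Ptbp, 3 Rbfox, 2 Nova, 6 Celf, 4 Elavl and 2 Mbnl genes. The mice carried a knock-in allele that changes Arg to Cys in CYFIP2 (*Cyfip2* Arg87Cys, heterozygous, here KI), a member of the WAVE complex that regulates actin assembly, or were their wild-type (WT) littermates, all on the C57BL/6N strain. Frontal cortex (labelled cortex) and hippocampus were dissected from both hemispheres of each mouse at postnatal week (PWK) 1, 7, 14 or 28. Each of the 16 groups of region, age and genotype held 4 mice, which gave 64 libraries, and cortex and hippocampus of an age came from the same mice. The allele is carried by every cell of the animal, no treatment is labelled, and each age is a separate set of mice.

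Splicing regulators bind short sequence elements in pre-mRNA and decide which exons are kept. SR proteins (Srsf genes) and the SR-like Tra2 proteins mostly bind exonic enhancers and favour inclusion, whereas hnRNP proteins often oppose it, and both groups are expressed in nearly all cells. Rbfox, Nova, Celf and neuronal Elavl proteins set the exon choices of neurons, Mbnl proteins favour adult splice forms, and *Ptbp1* of progenitors gives way to *Ptbp2* in developing neurons. Many SR and hnRNP genes limit their own output through poison exons, whose inclusion sends the transcript to nonsense-mediated decay, so that the level of the gene is itself under splicing control.

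The bases before the start sites of *Hnrnph1*, *Srsf3*, *Srsf7* and *Tra2a* are shown because these 4 genes were lower in KI than in WT in both regions at PWK 28, with the largest mean difference of the 2 regions among the genes called in both. They are RefSeq sequences on GRCm38.p6, 250 bases each, written 5′ to 3′ on the strand of the gene and ending at the base before the start. Capitals mark matches, on either strand, to the CCAAT box (CCAAT), the GC box (GGGCGG), an ETS site (CCGGAAG), a cAMP response element (TGACGTCA) or the TATA box (TATAAA).
Hnrnph1, chr11:50376740-50376989, plus strand: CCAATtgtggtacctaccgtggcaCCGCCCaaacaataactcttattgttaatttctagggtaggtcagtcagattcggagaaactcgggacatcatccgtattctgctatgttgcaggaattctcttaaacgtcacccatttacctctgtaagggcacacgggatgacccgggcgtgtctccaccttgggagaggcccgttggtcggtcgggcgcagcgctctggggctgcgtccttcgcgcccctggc
Srsf3, chr17:29032410-29032659, plus strand: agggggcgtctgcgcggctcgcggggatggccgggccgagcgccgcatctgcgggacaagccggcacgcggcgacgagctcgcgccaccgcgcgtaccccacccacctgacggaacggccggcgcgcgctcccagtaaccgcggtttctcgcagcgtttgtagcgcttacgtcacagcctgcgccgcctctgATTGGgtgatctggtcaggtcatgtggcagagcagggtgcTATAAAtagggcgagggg
Srsf7, chr17:80207306-80207555, minus strand: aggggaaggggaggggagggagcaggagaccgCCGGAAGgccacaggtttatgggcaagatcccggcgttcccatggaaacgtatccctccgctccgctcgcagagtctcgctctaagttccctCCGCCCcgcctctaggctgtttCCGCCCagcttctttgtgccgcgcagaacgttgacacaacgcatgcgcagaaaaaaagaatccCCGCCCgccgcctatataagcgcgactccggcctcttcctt
Tra2a, chr6:49264053-49264302, minus strand: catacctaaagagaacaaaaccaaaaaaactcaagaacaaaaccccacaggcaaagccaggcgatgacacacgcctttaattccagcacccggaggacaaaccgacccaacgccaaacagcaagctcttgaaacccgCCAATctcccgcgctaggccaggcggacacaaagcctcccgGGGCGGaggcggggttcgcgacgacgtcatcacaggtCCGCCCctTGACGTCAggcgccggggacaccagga
*Hnrnph1*, *Srsf3* and *Tra2a* each held a CCAAT box, at 250, 58 and 113 bases before the start. *Srsf7* held none and carried 3 GC boxes and an ETS site, and *Tra2a* held a cAMP response element 27 bases before the start. No motif was common to all 4. Promoter windows of 300 bases, which add the first 50 bases of the transcript, were on hand for 48 of the 53 genes and for 12002 genes in all. A CCAAT box was present in 24 of the 48 (50%) against 38.4% of all promoters, a GC box in 33 (68.8%) against 62.0%, a TATA box in 8 (16.7%) against 7.5% and a cAMP response element in 2 (4.2%) against 3.0%. An ETS site was present in 6 (12.5%) against 16%, an E-box (CACGTG) in 6 (12.5%) against 9.6% and the heat shock element GAANNTTC in 5 (10.4%) against 5.8%. These are matches of letters and were not tested.

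The splicing regulators were abundant, and all 53 passed the filter on low values in every comparison. Values are normalised counts, that is, estimated reads per gene after scaling of the libraries to each other. The median over genes of the mean normalised count was 4156 for the 53 and 642 for the 15496 protein-coding genes of the table, and the lowest value of any of the 53 in any library was 414. An annotated transcript subject to nonsense-mediated decay existed for 27 of the 53 genes (50.9%) against 26.6% of the protein-coding genes, and a retained-intron transcript for 38 (71.7%) against 54.5%. The deposited values are 1 number per gene and do not separate such transcripts from the coding ones. Per kilobase of the longest transcript, the highest levels in adult WT brain (mean of PWK 7, 14 and 28 and both regions) belonged to *Hnrnpk* at 3714, *Hnrnpa2b1* at 3700, *Celf4* at 3338 and *Srsf5* at 2982 normalised counts per kilobase. The lowest belonged to *Hnrnpr* at 140.1 and *Ptbp3* at 152, and that of *Hnrnpr* rests on a longest annotated transcript of 21452 bases. *Ptbp2* stood at 798 and *Ptbp1* at 347 on the same scale.

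After the scaling of the authors, which makes libraries alike in level, the totals were 29225576 to 32601227 normalised counts, and the depth before it is unknown. *Prox1*, a marker of dentate granule cells, averaged 3936 in hippocampus and 553 in cortex of PWK 28 WT mice, higher in the libraries labelled hippocampus. A missense allele is read as the same gene, so the level of *Cyfip2* does not check the genotype. It was nevertheless lower in KI cortex at PWK 28, where the KI libraries read 21597, 30055, 26765 and 24490.4 and the WT libraries 34022, 35187, 35279 and 34418 (log2 difference -0.44 ± 0.087 (SE), adjusted p = 0.0058). At the other ages and in hippocampus *Cyfip2* did not pass the test (PWK 14 cortex -0.33, adjusted p = 0.054; PWK 28 hippocampus -0.042, adjusted p = 0.67). Bulk tissue was sequenced, so fewer cells of a type and less RNA per cell cannot be told apart in any result below.

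The first question was whether the knock-in changed these genes at each age. Up to PWK 7 none of the 53 passed the test (limma, adjusted p under 0.05 over all genes) in either region, and at PWK 14 and 28 the genes that passed were nearly all lower in KI. In cortex 1 gene was called at PWK 14, where 5.18% of all genes tested were called and 2.7% were called lower, and 17 at PWK 28 (1 higher, 16 lower), which is 32.1% of the 53 against 22.2% of all genes. In hippocampus 10 were called at PWK 14, all lower (18.9% against 15.6% of all genes, 7.95% lower), and 17 at PWK 28 (2 higher, 15 lower), which is 32.1% against 15.8%. The 53 are abundant (median of the mean normalised count 4156, against 642 for protein-coding genes). Their share was not compared with that of genes of like level. Genes called lower made up 10% of all genes in cortex and 6.91% in hippocampus at PWK 28, and genes called higher 12.2% and 8.92%. The median log2 difference of the 53 was -0.10 in cortex and -0.066 in hippocampus at PWK 28 and -0.11 in hippocampus at PWK 14, against medians over all genes tested of -0.0034, 0.0037 and 0.0060.

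**Figure D1:**
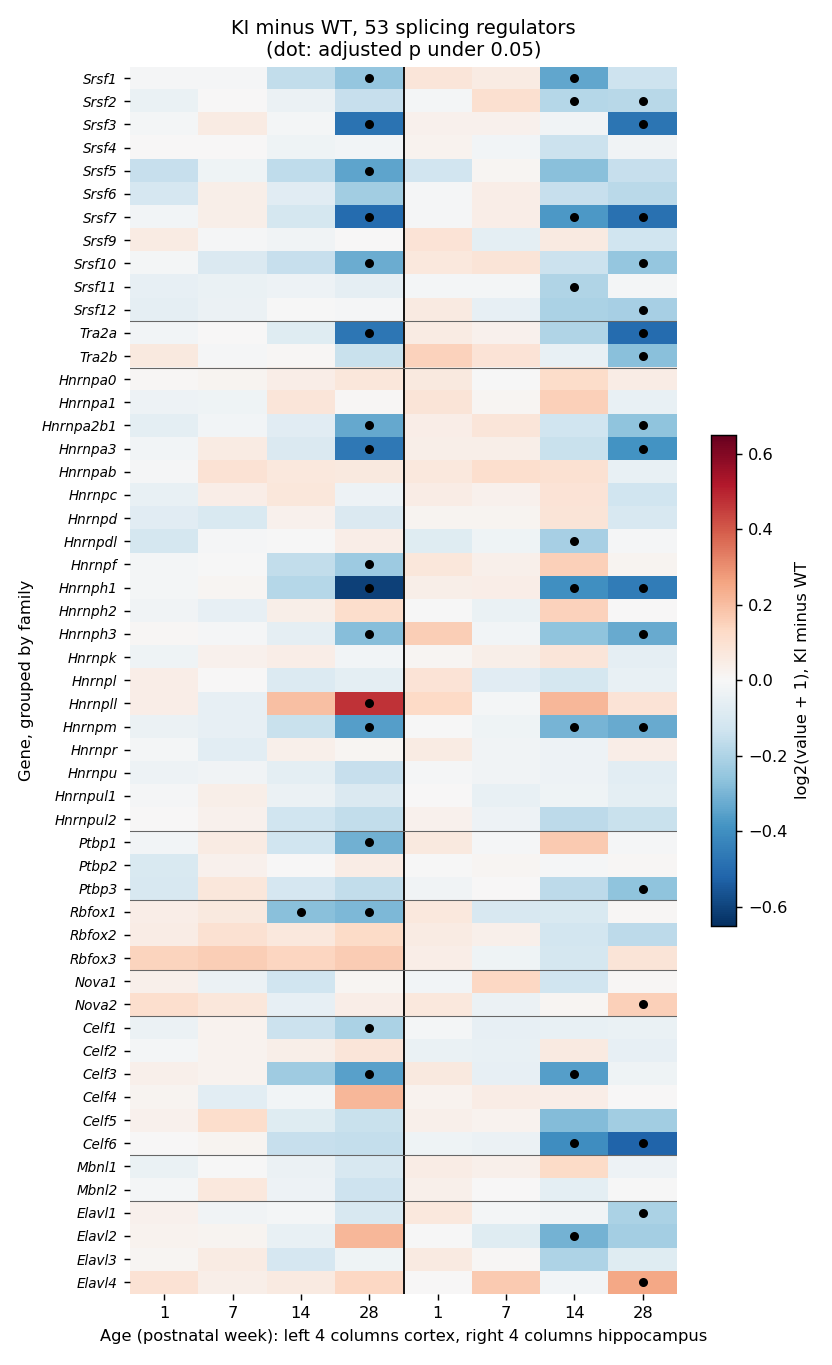
Heat map of the log2(value + 1) difference between KI and WT mice for the 53 genes (rows, grouped by family) at PWK 1, 7, 14 and 28 in cortex (left 4 columns) and hippocampus (right 4 columns), 4 libraries a group; blue is lower in KI, red is higher, and a dot marks adjusted p under 0.05. The dots stand in the PWK 14 and 28 columns only, 1 and 17 for cortex, 10 and 17 for hippocampus, and all but 3 of them lie on blue cells.

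SR and Tra2 genes made up 6 of the 16 genes that fell in cortex at PWK 28 and 7 of the 15 in hippocampus. The Srsf and Tra2 families hold 11 and 2 of the 53 genes. Of all genes tested, 10% were called lower in cortex and 6.91% in hippocampus. In cortex at PWK 28, 5 of the 11 Srsf genes and 1 of the 2 Tra2 genes were lower in KI and none was higher; in hippocampus these counts were 5 of 11 and 2 of 2. *Srsf7*, which binds exonic enhancers and takes part in mRNA export, read 2199, 2730.4, 2382 and 2202 in the 4 KI cortex libraries and 3359.9, 3215, 3259 and 3559 in the 4 WT libraries. In hippocampus it read 2562, 2842, 2469 and 2481 in KI and 3568, 3759, 3491 and 3667 in WT. No KI library reached the lowest WT library in either region (log2 difference -0.50 ± 0.076 (SE), adjusted p = 0.0016 in cortex and -0.49 ± 0.054 (SE), adjusted p = 0.00025 in hippocampus). *Srsf3*, the smallest SR protein, read 3574, 3416, 3380.2 and 2775 in KI cortex against 4422, 4362, 4749 and 4699 in WT, and 3898, 3615, 3639 and 2906 in KI hippocampus against 4878, 4892, 4828 and 4858 in WT. The KI library labelled replicate 4 was the lowest in both regions, and the groups did not overlap (-0.48 ± 0.078 (SE), adjusted p = 0.0023 and -0.48 ± 0.076 (SE), adjusted p = 0.0021). *Tra2a*, an SR-like activator that is here singled out after its values were seen, read 2012, 2897, 2349 and 2517 in KI cortex and 2223, 2925, 2330.1 and 2548 in KI hippocampus, where WT libraries read 3235 to 3453 and 3387 to 3774. The KI library labelled replicate 2 was the nearest to WT in both regions (-0.47, adjusted p = 0.0065 in cortex and -0.50, adjusted p = 0.0019 in hippocampus).

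The other SR genes moved less. *Srsf10*, an SR protein that can act as a repressor, was lower in both regions (log2 difference -0.32, adjusted p = 0.01 in cortex and -0.25, adjusted p = 0.023 in hippocampus), though its call in hippocampus was lost without KI replicate 1, WT replicate 2 or WT replicate 4. *Srsf1*, the prototype of the family, and *Srsf5* were called in cortex only (-0.25, adjusted p = 0.011 and -0.34, adjusted p = 0.0087); in hippocampus they stood at -0.14, adjusted p = 0.082 and -0.15, adjusted p = 0.088, and the difference between the regions was not called for either (adjusted p = 0.43 and 0.28). *Srsf2*, a marker of nuclear speckles, *Srsf12* and *Tra2b* were called in hippocampus (-0.18, adjusted p = 0.014, -0.22, adjusted p = 0.031 and -0.27, adjusted p = 0.039), where *Tra2b* was the 1 called gene whose KI and WT libraries overlapped. Leaving out single libraries ended the *Srsf12* call in 6 of 8 cases and the *Tra2b* call in 7 of 8. Summed per kilobase, the 11 Srsf genes gave 12089 ± 618 (SD, n = 4) in KI cortex and 14277 ± 147 in WT cortex, and 13207 ± 148 in KI hippocampus and 15056 ± 52.1 in WT hippocampus. The highest KI library, 13007 in cortex and 13375 in hippocampus, lay below the lowest WT library, 14068 and 14983.

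**Figure D2:**
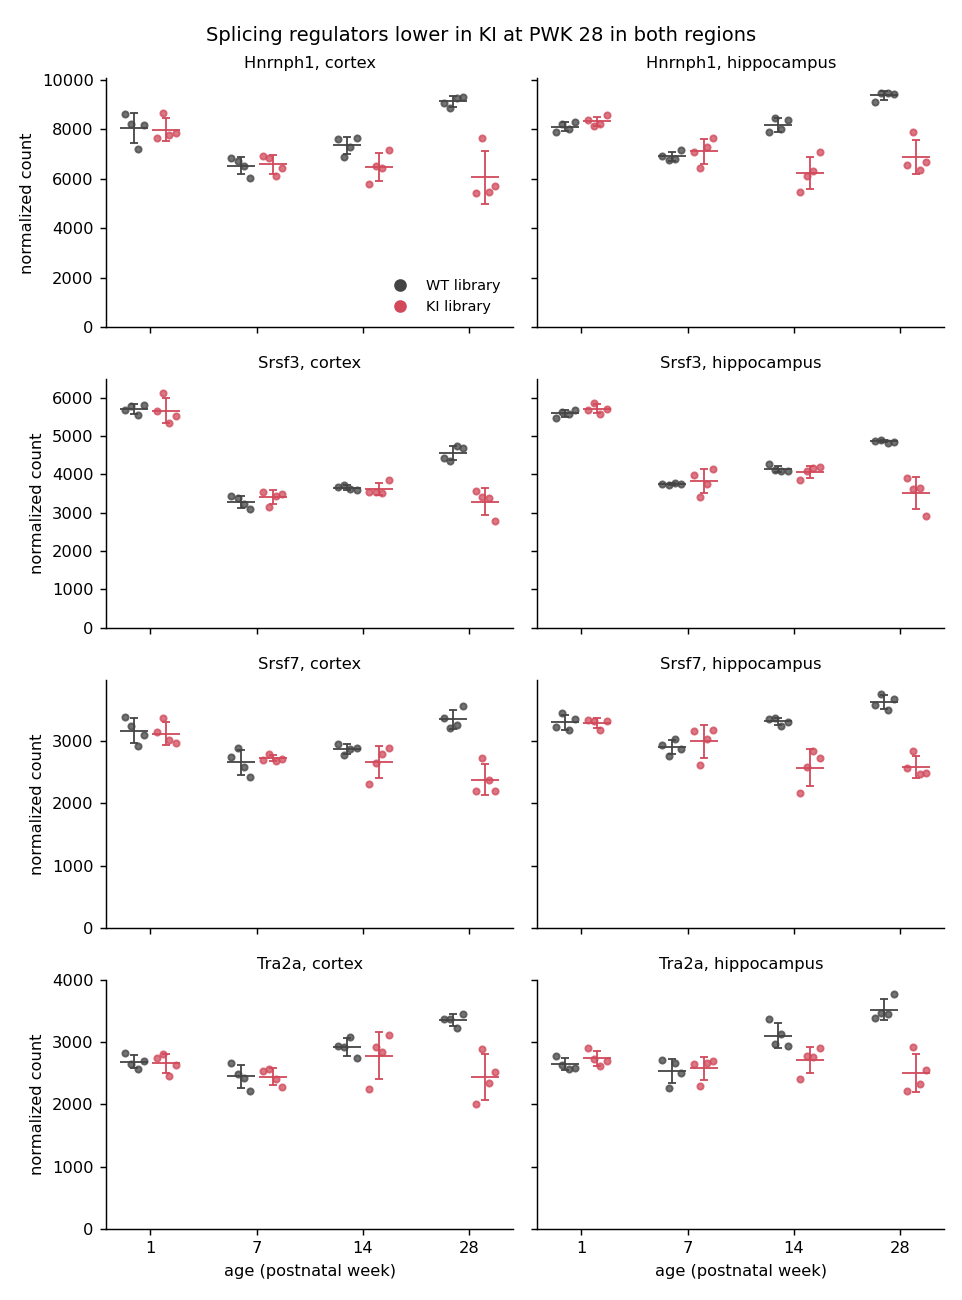
Normalised counts of *Hnrnph1*, *Srsf3*, *Srsf7* and *Tra2a* (rows) in cortex (left) and hippocampus (right) by age in postnatal weeks, 1 point per library, with a bar at the mean and whiskers of 1 SD (n = 4). WT (grey) and KI (red) points overlap at PWK 1 and 7, and at PWK 28 every KI point lies below every WT point, for example 2199 to 2730 against 3215 to 3559 for *Srsf7* in cortex.

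Among the hnRNP genes, 6 of 20 were lower and 1 higher in KI cortex at PWK 28, and 5 of 20 were lower and none higher in KI hippocampus. Of all genes tested, 10% were called lower and 12.2% higher in cortex, and 6.91% and 8.92% in hippocampus. *Hnrnph1*, which binds runs of G, had the largest drop of the 53 in cortex. Its KI cortex libraries read 5408, 7643, 5470.1 and 5721, against 9077, 8855, 9287 and 9307 in WT. In hippocampus KI read 6547, 7881, 6356 and 6697 and WT 9108, 9462, 9494 and 9451. The KI library labelled replicate 2 was the highest of its group in both regions but still below all WT libraries (-0.61 ± 0.099 (SE), adjusted p = 0.0022 in cortex and -0.45 ± 0.062 (SE), adjusted p = 0.00086 in hippocampus). *Hnrnph3*, its paralogue, fell as well (-0.28, adjusted p = 0.015 and -0.33, adjusted p = 0.005).

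*Hnrnpa3*, an A/B-type protein, read 9195, 9532, 8647 and 9380.5 in KI hippocampus and 11704, 12880.0, 10994 and 12534 in WT (-0.39 ± 0.055 (SE), adjusted p = 0.0011), and 7679.5 to 8993 in KI cortex against 9785 to 13042 in WT (-0.47, adjusted p = 0.0044). *Hnrnpa2b1*, which also takes part in carrying RNAs into cell processes, read 13764, 13751, 13173 and 13031 in KI hippocampus and 16278, 15787, 15732 and 16493 in WT (-0.26 ± 0.038 (SE), adjusted p = 0.0013). The groups did not overlap for either gene. In cortex *Hnrnpa2b1* fell from 14402 ± 423 in WT to 11456 ± 687 in KI (mean ± SD, n = 4). *Hnrnpm*, a partner of Rbfox proteins on pre-mRNA, was lower in both regions (-0.36, adjusted p = 0.0055 and -0.33, adjusted p = 0.0049), and *Hnrnpf* was lower in cortex (-0.23, adjusted p = 0.016; the call was lost without WT replicate 4).

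*Hnrnpll*, a paralogue of *Hnrnpl* known for the splicing of Ptprc in lymphocytes, was the 1 gene called higher in KI cortex at PWK 28. Its KI libraries read 3399, 2245, 3648 and 2295 and its WT libraries 1964, 1859, 2173 and 2196. The KI libraries labelled replicates 1 and 3 carried most of the difference (0.47 ± 0.15 (SE), adjusted p = 0.049), and the call was lost without either of them or without any 1 of the WT libraries. The same split was seen for *Cirbp*, the cold-inducible RNA-binding protein, which read 2289, 1264, 2342 and 1457 in these libraries and 1359 to 1585 in WT. In hippocampus *Cirbp* read 2222, 1094, 2102 and 1196 in KI, and *Hnrnpll* 2407, 1948, 2425 and 1807 (0.087, adjusted p = 0.56). Whether the 2 splits are connected was not tested.

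In all, 9 genes were called lower in KI in both regions at PWK 28 (*Hnrnpa2b1*, *Hnrnpa3*, *Hnrnph1*, *Hnrnph3*, *Hnrnpm*, *Srsf3*, *Srsf7*, *Srsf10* and *Tra2a*), which is 9 of the 16 called lower in cortex and 9 of the 15 in hippocampus, and 28 genes were called in neither region. Of all genes tested in both regions, 3.3% (606 of 18357) were called lower in both and 4.33% higher in both, where none of the 53 was. The regions share their mice, so the hippocampus is not an independent repeat of the cortex.

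Of the 15 Celf, Elavl, Nova and Rbfox genes, 3 were called in cortex at PWK 28, all lower, and 4 in hippocampus, 2 higher and 2 lower. Of all genes tested, 22.2% were called in cortex (10% lower) and 15.8% in hippocampus (8.92% higher, 6.91% lower). The cortex count is thus near the share of all genes. *Celf3*, a CELF protein found mainly in neurons, read 3189.7, 3226, 3150.1 and 3129 in KI cortex against 3926, 3969.7, 4090.4 and 4209 in WT, with no overlap and the lowest adjusted p of the 53 in that comparison (-0.35 ± 0.048 (SE), adjusted p = 0.00089). In hippocampus its KI libraries read 4878, 4663, 5038 and 4359.9 and its WT libraries 4985, 4951, 4648 and 4695, which overlapped (-0.027, adjusted p = 0.77). *Celf6* was lower in hippocampus, with KI libraries at 415, 481, 421 and 529.5 and WT libraries at 667, 636, 652 and 684 (-0.52 ± 0.086 (SE), adjusted p = 0.0024), and stood at -0.16, adjusted p = 0.30 in cortex. *Celf1*, expressed in most tissues, was called in cortex (-0.21, adjusted p = 0.022), a call lost without KI replicate 1 or 3 or WT replicate 3 or 4. The other 3 Celf genes were not called in either region.

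*Rbfox1*, which limits the excitability of neurons through the exons it controls, was lower in KI cortex at PWK 28. Its KI libraries read 5155, 6018, 5114 and 6118 and its WT libraries 6419, 7171, 6749 and 7011 (-0.29 ± 0.072 (SE), adjusted p = 0.017); the call was lost without WT replicate 2 or 4. The KI libraries labelled replicates 1 and 3, those with high *Hnrnpll*, were the lower pair. In hippocampus *Rbfox1* read 7277 to 8028 in KI and 6943 to 8276 in WT (0.0083, adjusted p = 0.94). *Rbfox3*, the neuronal nuclear antigen NeuN, was called in none of the 8 comparisons of KI with WT. In cortex at PWK 28 its KI libraries, 6850.3, 8414, 6989.9 and 7091, nevertheless lay above its WT libraries, 6257, 6703, 6309.7 and 6819.6 (0.17, adjusted p = 0.12).

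*Nova2* and *Elavl4* were the genes called higher in KI hippocampus at PWK 28. *Nova2*, a neuronal regulator of exons in synaptic and axon guidance genes, read 3291, 3384, 3422 and 3407 in KI and 3154, 3116, 2864 and 3008 in WT (0.15 ± 0.045 (SE), adjusted p = 0.038). *Elavl4*, a neuronal Hu protein that stabilises its target mRNAs, read 2062, 2203, 2192 and 2351 in KI and 1889, 1824, 1649 and 2046 in WT (0.25 ± 0.068 (SE), adjusted p = 0.028). The highest WT and the lowest KI library were close for both genes. The *Nova2* call was lost when any library but KI replicate 1 was left out and the *Elavl4* call when any but KI replicate 1 or WT replicate 4 was, and both were lost when each library was rescaled to the same total. *Elavl1*, the Hu protein of all tissues, was lower in hippocampus (-0.21, adjusted p = 0.028), a call lost without any 1 of 5 of the 8 libraries, KI replicates 1 and 4 and WT replicates 1, 2 and 4. *Ptbp1*, the repressor of neuronal exons in non-neuronal cells, was lower in KI cortex at PWK 28, with 959.9, 797, 846 and 729.5 in KI and 1014, 1058, 1076 and 973 in WT (-0.31 ± 0.088 (SE), adjusted p = 0.029), and this call was lost without KI replicate 3 or 4 or WT replicate 1, 2 or 3. *Ptbp2*, its neuronal counterpart, was called at no age (PWK 28: 0.049, adjusted p = 0.50 in cortex and 0.0087, adjusted p = 0.91 in hippocampus), and *Ptbp3* was lower in hippocampus (-0.26, adjusted p = 0.01). Neither Mbnl gene was called in any comparison of KI with WT.

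At PWK 14 the calls lay almost wholly in hippocampus, where more of all genes were called as well (15.6% against 5.18% in cortex). No gene of the 53 passed the direct test of the KI effect between the regions at that age. In hippocampus *Hnrnph1* read 5470.0, 6112, 6302 and 7074 in KI and 7883, 8457, 8018 and 8394 in WT (-0.40 ± 0.077 (SE), adjusted p = 0.0099). *Srsf7* read 2159, 2575, 2845 and 2719 in KI and 3352, 3370.0, 3240.0 and 3301 in WT (-0.37 ± 0.082 (SE), adjusted p = 0.017), and *Celf3* 4462, 4802, 4964 and 4505 in KI and 5859.9, 6148, 5153 and 6952 in WT (-0.36 ± 0.088 (SE), adjusted p = 0.025). *Srsf1* read 4582, 5375, 5428 and 6088 in KI and 6674, 6457, 6680.3 and 7213 in WT (-0.34 ± 0.084 (SE), adjusted p = 0.026). The groups did not overlap for these 4 genes, and the KI library labelled replicate 1 was the lowest of its group for each. The other called genes were *Srsf2*, *Srsf11*, *Hnrnpm*, *Hnrnpdl*, *Celf6* and *Elavl2*, with log2 differences from -0.40 for *Celf6* to -0.18 for *Srsf2*. The number of calls depended on single libraries. The 10 calls became 1 without WT replicate 1, 2 without WT replicate 2 and 4 without any 1 of WT replicates 3 and 4 and KI replicates 2 and 3, and *Hnrnph1* was the 1 gene called in all 8 of these fits; *Srsf7* was lost without WT replicate 1 or 2. Without KI replicate 4 the count was 8, and without KI replicate 1 it was 10, of which 9 were among the 10 genes above. In cortex at PWK 14 the single called gene was *Rbfox1*, with 6772, 6483, 6771 and 5833 in KI and 8033, 8406, 7409.6 and 7362 in WT (-0.27 ± 0.066 (SE), adjusted p = 0.041), and it was lost without KI replicate 2 or 4 or any 1 WT library. *Hnrnph1* in cortex at that age read 5787, 6516, 6452 and 7157 in KI and 7595, 6898, 7306 and 7658 in WT, which overlapped (-0.19, adjusted p = 0.14).

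At PWK 1 and 7 no splicing regulator was called. Of all genes tested in cortex 0.00546% were called at PWK 1 and 0.00545% at PWK 7, and the shares in hippocampus were 0.0109% and 0.0218%. At an unadjusted p under 0.05, 2 and 3 of the 53 passed in cortex and 2 and 1 in hippocampus. *Hnrnph1*, for example, averaged 7122 ± 506 in KI and 6911 ± 187 in WT hippocampus at PWK 7 (mean ± SD, n = 4), with a 95% interval of the log2 difference of -0.078 to 0.16.

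Whether the KI effect changed between PWK 14 and PWK 28 was tested directly, and none of the 53 passed in either region (0 of all genes tested were called in both; unadjusted p was under 0.05 for 8 of the 53 in cortex and 11 in hippocampus). *Srsf3* came nearest. Its log2 difference between KI and WT was -0.014 at PWK 14 and -0.48 at PWK 28 in cortex, a change of -0.46 with a 95% interval of -0.66 to -0.27 (adjusted p = 0.079). In hippocampus it was -0.024 and -0.48, a change of -0.45 with an interval of -0.65 to -0.25 (adjusted p = 0.11). The change was -0.38 for *Srsf7* in cortex (adjusted p = 0.13) and -0.24 for *Hnrnpa3* in hippocampus (adjusted p = 0.20). The count of 0 in cortex became 5 without KI replicate 2 of PWK 28 and 4 without KI replicate 1 of PWK 14, and the count in hippocampus became 1 without KI replicate 1 of PWK 28.

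Between regions, 1 gene differed in its KI effect when the libraries were taken as separate mice. At PWK 28 the log2 difference of *Celf3* between KI and WT was -0.35 in cortex and -0.027 in hippocampus, and the difference between them was 0.32 ± 0.067 (SE), adjusted p = 0.0099, where 4.57% of all genes were called and 2.39% were higher. *Elavl2*, a neuronal Hu protein, came next, with 0.22 in cortex and -0.22 in hippocampus (difference -0.44, adjusted p = 0.054). The *Celf3* call held in all 16 fits that left out 1 library; the number of genes called rose to 4 without cortex KI replicate 2 and to 2 without any 1 of cortex KI replicates 1 and 4, cortex WT replicate 4, hippocampus KI replicate 3 and hippocampus WT replicates 3 and 4. The labels do not say which libraries came from 1 mouse, but same-numbered KI libraries of cortex and hippocampus correlated in their deviations from the group means at PWK 28, with r of 0.403, 0.239, 0.243 and 0.443, whereas those of WT stood at -0.073 to 0.047. With the replicate number as a block, 5 genes differed, *Celf3* (0.32, adjusted p = 0.019), *Hnrnpf* (0.25, adjusted p = 0.025), *Hnrnpll* (-0.38, adjusted p = 0.029), *Rbfox2* (-0.29, adjusted p = 0.015) and *Celf6* (-0.37, adjusted p = 0.035). At PWK 14 none of the 53 passed in either fit (without the block, 7 at an unadjusted p under 0.05; 2.85% of all genes were called). The nearest were *Hnrnpf*, at -0.16 in cortex and 0.16 in hippocampus (adjusted p of the difference = 0.14), and *Hnrnpdl*, at -0.0036 and -0.22 (adjusted p = 0.17).

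Markers of cell types moved in the same libraries. *Gfap*, the intermediate filament of reactive astrocytes, read 131431, 40059, 45879.7 and 47169 in KI hippocampus at PWK 14 and 7502 to 9231 in WT, with the highest value in the library labelled replicate 1. At PWK 28 it read 44711, 32067, 35273 and 37928 in KI hippocampus and 8803 to 9894 in WT. In cortex it read 12404, 4842, 4322 and 5221 in KI and 1675 to 2433 in WT at PWK 14, and 14031, 5846, 8135 and 9789 in KI and 2553 to 4062 in WT at PWK 28. KI lay above WT without overlap in all 4 cases. The summed level of the 6 astrocyte markers, *Gfap* among them, ran from 93381 to 208851 in KI and from 60621 to 67631 in WT hippocampus at PWK 14. At PWK 28 it ran from 97155 to 107837 against 62089 to 65333. By the values above, *Gfap* makes up a large part of these KI sums. The sum is therefore not a separate sign of an astrocyte shift, and the markers were not summed without *Gfap*. In cortex the summed level, unlike that of *Gfap*, overlapped at PWK 28 (51073 to 60197 in KI and 50847 to 57482 in WT). The 6 neuron markers summed to 124477 to 145291 in KI and 149863 to 156102 in WT hippocampus at PWK 14. They overlapped in hippocampus (137583 to 153766 against 144443 to 155560.0) and in cortex (189746 to 203341 against 178911 to 200430.0) at PWK 28. The 6 microglia markers summed to 9664 to 10581 in KI and 7574 to 8698 in WT hippocampus at PWK 28, and overlapped in cortex. The 3 markers of immature neurons summed to 1801 to 2989 in KI and 1327 to 1698 in WT hippocampus at PWK 14. In cortex at PWK 14 the 4 endothelial markers summed to 2382 to 2769 in KI and 3548 to 3923 in WT, and the 3 markers of oligodendrocyte precursors to 3748 to 4346 and 4359 to 5358. Of the 10 marker lists, 2 did not overlap in cortex and 3 in hippocampus at PWK 14, and 0 and 2 at PWK 28. At PWK 1 and 7, 1 list did not overlap in cortex at each age, and 0 in hippocampus. These were the oligodendrocyte precursor and microglia lists, both lower in KI. Many single genes did not overlap either. At PWK 14, KI lay above WT for 1220 and below it for 1380 of 18367 genes in cortex. In hippocampus these counts were 2132 and 2249 of 18405 at PWK 14 and 2166 and 1796 of 18389 at PWK 28. In cortex at PWK 28 they were 2584 and 2168 of 18387. The 3 markers of ependyma and choroid plexus varied widely within groups. They summed to 1294 to 89860 in KI and 1168 to 95173 in WT hippocampus at PWK 14, and to 268 to 20216 in WT cortex at PWK 28. The content of such tissue thus differed between libraries of 1 group. No marker was at 0 in any library, and the part of the marker shifts and of this spread in the splicing regulators was not tested.

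The second question was how these genes changed as WT mice grew. From PWK 1 to PWK 7, 46 of the 53 changed in cortex (11 higher, 35 lower, where 32.5% and 32.7% of all genes were called higher and lower, 65.3% in all) and 45 in hippocampus (15 higher, 30 lower, against 30.9% and 30.4%, 61.3% in all). Of these, 10 rose and 29 fell in both regions, as did 23.6% and 24.4% of all genes. Both Mbnl genes rose. *Mbnl2* read 3232, 2843, 3245 and 2986 at PWK 1 and 7604, 6904, 7125 and 6955 at PWK 7 in cortex, with a like change in hippocampus (log2 difference 1.22 and 1.25). *Mbnl1* rose by 0.76 and 0.67, *Srsf5* by 0.61 and 0.54, *Hnrnph3* by 0.51 and 0.37, and *Srsf11* by 0.39 and 0.31. The libraries of the 2 ages did not overlap for *Mbnl2* in either region.

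The genes that fell most were *Celf6*, *Srsf12*, *Elavl4*, *Hnrnpab* and *Elavl3*. *Celf6* read 976, 966, 949 and 1021 at PWK 1 and 430.3, 452, 481 and 435 at PWK 7 in cortex (-1.12 and -0.73 in hippocampus). *Srsf12*, an SR protein, read 1212 to 1445 and 550.2 to 698 in cortex (-1.04 and -0.66 in hippocampus). The ages did not overlap for either gene. *Elavl4* changed by -0.60 in cortex and -1.03 in hippocampus, *Elavl3* by -0.84 and -0.62, and *Hnrnpab*, an A/B-type hnRNP, by -0.92 and -0.62. *Nova1* and *Hnrnpl* were called in opposite directions in the 2 regions. *Nova1* went from 1633 ± 94.9 to 2212 ± 72.6 in cortex (0.44, adjusted p = 1.2e-05) and from 1554 ± 67.3 to 1245 ± 185 in hippocampus (-0.33, adjusted p = 0.0072; means ± SD, n of 4 mice). *Ptbp1* changed by -0.34 and -0.26 and *Ptbp2* by -0.62 and -0.35, both called in both regions, and *Rbfox3* rose by 0.31 and 0.31. Age and the time of collection cannot be told apart. Over the same interval the 6 oligodendrocyte markers rose from a summed range of 7204 to 16716 to one of 144799 to 183853 in cortex, and their part in these changes was not tested.

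**Figure D3:**
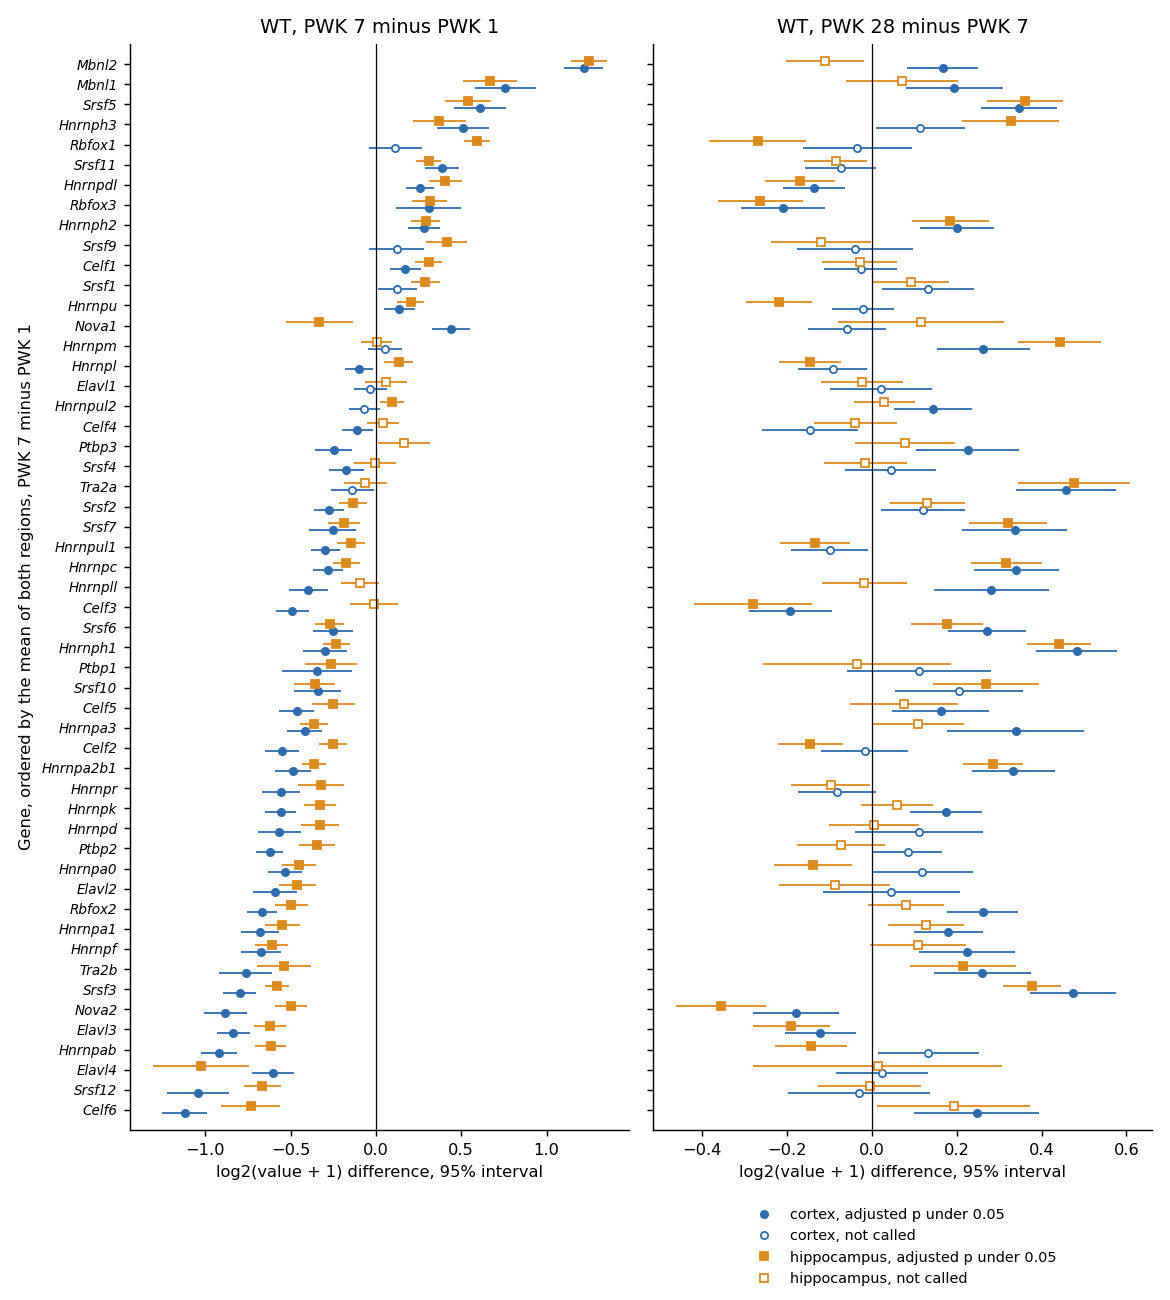
Log2(value + 1) difference between ages in WT mice with its 95% interval for the 53 genes (rows), PWK 7 minus PWK 1 (left) and PWK 28 minus PWK 7 (right), in cortex (blue circles) and hippocampus (orange squares); filled symbols have adjusted p under 0.05. *Mbnl2* stands highest on the left at 1.22 and 1.25, *Celf6* is lowest in cortex at -1.12, and *Hnrnph1*, *Srsf3* and *Tra2a* are the highest in cortex on the right.

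From PWK 7 to PWK 28 changes in WT were smaller, and 28 genes changed in cortex (23 higher, 5 lower, against 22.2% of all genes, 10.9% higher and 11.4% lower) and 25 in hippocampus (13 higher, 12 lower, against 14.7% of all genes, 6.35% higher and 8.38% lower). Here too, age and the time of collection cannot be told apart. Over both regions 11 genes rose and 5 fell, as did 3.21% and 3.6% of all genes. Those that rose included SR, Tra2 and hnRNP genes that were lower in KI at PWK 28. The 2 comparisons use the same WT libraries of PWK 28, so the values are given side by side and no relation between them was tested. *Hnrnph1* in WT cortex averaged 8056, 6539, 7364 and 9132 in the order of the ages, whereas in KI cortex it averaged 7987, 6588, 6478 and 6061. Its log2 change from PWK 7 to PWK 28 in WT was 0.48 in cortex and 0.44 in hippocampus. *Srsf3* averaged 3284 and 4558 in WT cortex at PWK 7 and 28 and 3402 and 3286 in KI cortex (0.47 and 0.38 in WT cortex and hippocampus). The same 2 WT changes were 0.46 and 0.48 for *Tra2a*, 0.35 and 0.36 for *Srsf5* and 0.34 and 0.32 for *Srsf7*, all called.

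Of the genes called lower in KI in both regions at PWK 28, *Hnrnpa2b1* (0.33 and 0.29) and *Hnrnpm* (0.26 and 0.44) also rose in WT in both regions. *Hnrnpa3* rose in cortex (0.34, adjusted p = 0.0074) but was not called in hippocampus (0.11, adjusted p = 0.17), and *Hnrnph3* and *Srsf10* rose in hippocampus (0.33, adjusted p = 0.0029 and 0.27, adjusted p = 0.011) but were not called in cortex (0.11, adjusted p = 0.11 and 0.20, adjusted p = 0.052). The genes that fell with age included neuronal regulators. *Rbfox3* fell in both regions (-0.21 and -0.26), as did *Celf3* (-0.19 and -0.28) and *Nova2* (-0.18 and -0.36), and *Hnrnpu* fell in hippocampus (-0.22, adjusted p = 0.003 and -0.021, adjusted p = 0.70 in cortex). *Malat1*, a nuclear noncoding RNA of speckles, averaged 25274 ± 4195 at PWK 7, 18219.8 ± 2486 at PWK 14 and 41762 ± 5145 at PWK 28 in WT cortex, and its part in the changes with age was not tested.

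The third question was how WT hippocampus and cortex differed. The 2 regions came from the same mice, but the labels do not say which libraries belong together. The libraries were therefore fitted as separate mice, and the standard errors and p-values between regions leave out this pairing. At PWK 1, 18 of the 53 genes differed (6 higher in hippocampus, 12 lower), where 34.7% of all genes were called, 16.1% higher and 18.6% lower. At PWK 7, 30 differed (26 higher, 4 lower), against 40.8% of all genes, 20.4% in each direction. At PWK 14, 26 differed (20 higher, 6 lower), against 34.6%, 17% higher and 17.6% lower, and at PWK 28, 20 differed (15 higher, 5 lower), against 37.8%, 18.8% higher and 19% lower. The split at PWK 1 depended on scaling. It became 15 higher and 6 lower when each library was rescaled to the same total, which moved the median of all genes by 0.095, and 2 higher and 13 lower after correction for GC content and length. Leaving out single libraries gave 11 to 23 calls at PWK 1, with 11 without hippocampus replicate 2 or 3 or cortex replicate 2 or 4.

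*Elavl4* was lower in hippocampus at all 4 ages. At PWK 28 it read 1889, 1824, 1649 and 2046 in hippocampus and 3203, 3308, 3615 and 3623 in cortex, and its log2 difference was -0.46 at PWK 1 and -0.88, -0.89 and -0.89 at PWK 7, 14 and 28. *Nova1* read 1302, 1304, 1406 and 1344 in hippocampus and 2195, 2137, 2109 and 2055 in cortex at PWK 28. It was not called at PWK 1 (-0.07, adjusted p = 0.35) and stood at -0.84, -0.70 and -0.67 later. *Rbfox3* was lower at all 4 ages (-0.32, -0.32, -0.31 and -0.37), beside a summed level of 6 neuron markers, *Rbfox3* among them, of 144443 to 155560.0 in hippocampus and 178911 to 200430.0 in cortex at PWK 28. *Celf4* and *Rbfox2* were lower at 3 of the ages or more. Whether the neuron markers account for these differences was not tested.

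*Hnrnpab*, *Hnrnpc* and *Srsf1* were higher in hippocampus at all 4 ages, and 9 further genes at 3 of them, namely *Celf3*, *Hnrnpa1*, *Hnrnpa2b1*, *Hnrnpa3*, *Hnrnpdl*, *Hnrnpk*, *Hnrnpr*, *Ptbp3* and *Srsf9*. *Srsf9* read 973, 954, 959.8 and 1019 in hippocampus and 719, 747, 763 and 806 in cortex at PWK 28, with no overlap (log2 difference 0.36 ± 0.054 (SE), adjusted p = 0.00022). Its difference was 0.15 at PWK 1, 0.44 at PWK 7 and 0.35 at PWK 14. *Hnrnpab* differed by 0.16, 0.47, 0.38 and 0.19 from PWK 1 to PWK 28, and *Srsf1* by 0.14, 0.31, 0.20 and 0.27. The genes called at no age were *Elavl2*, *Hnrnph2*, *Hnrnpul1*, *Srsf4*, *Srsf5*, *Srsf10*, *Srsf11* and *Tra2a*, 8 in all, and *Celf2*, *Celf3* and *Srsf12* were called in both directions at different ages.

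**Figure D4:**
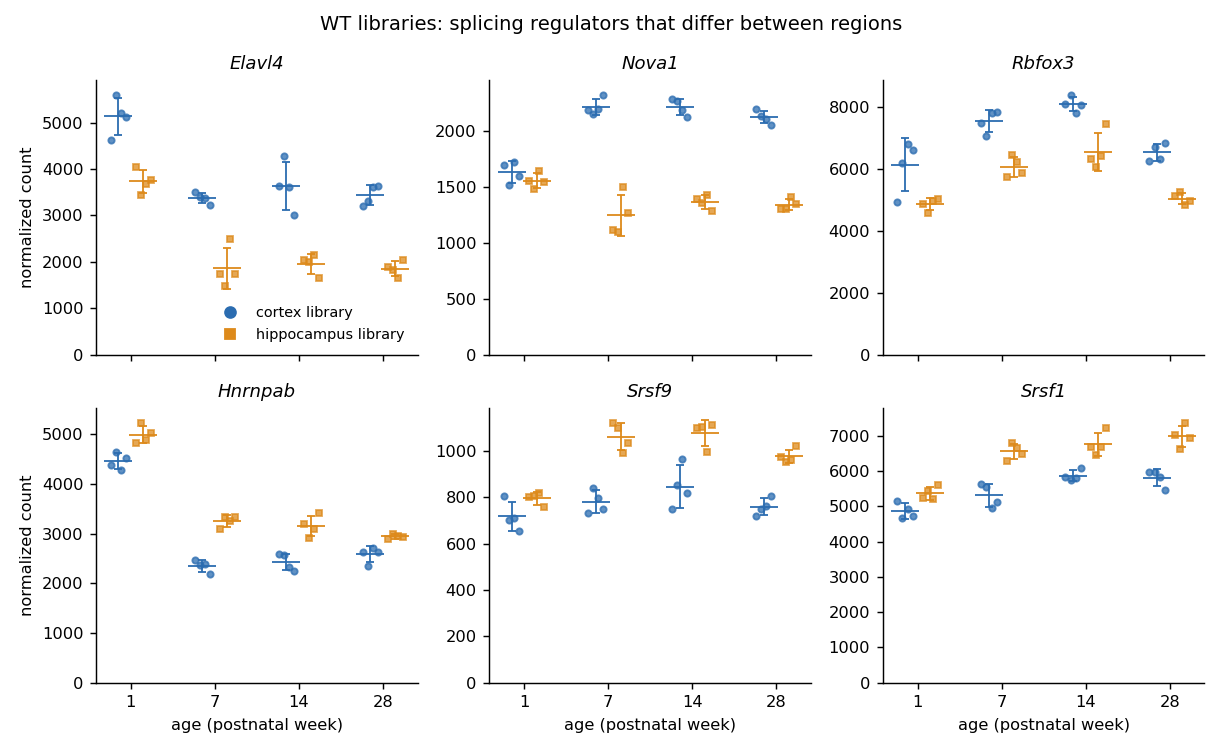
Normalised counts of 6 splicing regulators in WT cortex (blue circles) and WT hippocampus (orange squares) by age in postnatal weeks, 1 point per library, with a bar at the mean and whiskers of 1 SD (n = 4). *Elavl4*, *Nova1* and *Rbfox3* are lower in hippocampus at PWK 28, for *Elavl4* 1649 to 2046 against 3203 to 3623, and *Hnrnpab*, *Srsf9* and *Srsf1* are higher.

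Other parts of the splicing machinery were read from lists of genes, chosen with earlier results of these data known. Of 9 kinases that phosphorylate SR proteins, 1 was higher and 2 lower in KI cortex at PWK 28, 3 were lower in hippocampus at PWK 14 and 2 at PWK 28, which is 33.3%, 33.3% and 22.2% of the list where 22.2%, 15.6% and 15.8% of all genes were called. *Clk1*, a nuclear SR kinase whose own transcript is spliced in response to SR protein activity, was lower in all 3 (-0.52, adjusted p = 0.0011, -0.49, adjusted p = 0.013 and -0.42, adjusted p = 0.00023). Of 31 other splicing regulators, 2 were higher and 11 lower in cortex at PWK 28, 2 higher and 5 lower in hippocampus at PWK 14, and 13 lower and none higher in hippocampus at PWK 28 (41.9%, 22.6% and 41.9% of the list). *Sfpq*, a paraspeckle protein needed for the transcription of long neuronal genes, was lower in both regions at PWK 28 (-0.40, adjusted p = 0.00082 and -0.40, adjusted p = 0.00017), as was *Srrm1*, an SR-related coactivator (-0.40, adjusted p = 0.0018 and -0.34, adjusted p = 0.00038). *Khdrbs2*, which regulates neurexin exons in neurons, had the largest drop of that list in cortex (-0.93, adjusted p = 0.003), and *Srrm4*, the activator of neuronal microexons, was lower in hippocampus at PWK 28 (-0.22, adjusted p = 0.014). In cortex at that age the *Srrm4* libraries overlapped, at 1712 to 1960 in KI and 1677 to 2061 in WT. Of 34 core spliceosome genes, 2 were lower in cortex at PWK 28, 1 was higher and 5 lower in hippocampus at PWK 14, and 6 were lower in hippocampus at PWK 28. These shares, 5.88%, 17.6% and 17.6%, were below that of all genes in cortex and near it in hippocampus. *Snrnp70*, a protein of the U1 particle that recognises 5′ splice sites, was lower in all 3 (-0.32, adjusted p = 0.0018, -0.28, adjusted p = 0.038 and -0.29, adjusted p = 0.0012). Among 4 nuclear noncoding RNAs, of which 1, 3 and 2 were called, *Meg3* was lower in all 3 (-0.42, adjusted p = 0.0021, -0.48, adjusted p = 0.023 and -0.37, adjusted p = 0.0011), whereas *Malat1* was higher in hippocampus at PWK 14 (0.47, adjusted p = 0.011) and was not called at PWK 28.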

How the data were processed

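RNA from frontal cortex and hippocampus was sequenced as stranded TruSeq paired-end libraries. Transcripts were quantified by the authors with Salmon on GRCm38 and gene values were normalised with DESeq2 (Salmon 0.11.2, R 3.6.0 and DESeq2 1.19.11 in the submitters' processing notes). The deposited values are therefore a scaled signal per gene, normalised counts that are not whole numbers, with totals of 29225576 to 32601227 per library. Low values lay within 0.1 of whole steps in 29.7% to 63.0% of cases, so reads could not be recovered and no count test was run. The precision is that of 4 mice per group, each library being a separate mouse of its region; the highest correlation between any pair of libraries was 0.994. Ensembl IDs were matched to GENCODE M21 (18420 of 18432).

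Values were tested as log2(value + 1) by limma-trend (limma 3.58.1, R 4.3.3) on the libraries compared, over genes with a mean of at least 1, with Benjamini-Hochberg adjustment over all genes tested and a threshold of 0.05. Log2 differences are on that scale, with standard errors. The comparisons, 20 in all, were KI against WT in each region and age, WT between ages and between regions, and the differences of KI effects between PWK 28 and 14 and between regions. The procedure was tested on simulated data. Alternatives were a pseudocount of 10, no filter, a mean of at least 100, rescaling to equal totals, all 64 libraries in 1 fit, correction for GC content and length, a replicate block and leaving out each library.

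Genes given by library were the up to 4 per direction with the smallest p and no overlap (KI against WT), the 5 per direction with the largest change called in both regions (PWK 7 against 1), the 2 per direction with the smallest p (PWK 28 against 7), the 3 per direction with the largest mean difference (regions), the 2 with the smallest p (interactions), and Rbfox3, Ptbp1, Ptbp2 and Cyfip2. Further genes given by library, such as Tra2a, Celf6 and Cirbp, were chosen after their values were seen. The genes, and the lists of SR kinases, other splicing regulators, core spliceosome genes, nuclear noncoding RNAs and cell type markers, were chosen with earlier results of these data known. Single genes picked from these lists, such as Sfpq, Khdrbs2 and Srrm4, were not named in advance. Figures were drawn with matplotlib 3.10.9 in Python 3.11.15.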

Additional observations from a re-analysis of the deposited data

Results flagged for a closer look

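In 8 of 142 groups of 4 libraries (the 27 genes given by library in the comparisons that named them), 1 library stood apart from the other 3 by Dixon's test; chance flags about 1 in 20 groups, or 7.1 of 142. *Hnrnph1* read 7643 in cortex KI replicate 2 at PWK 28, where the others read 5409 to 5721, and 9108 in hippocampus WT replicate 1 at PWK 28, where the others read 9451 to 9494. *Srsf3* read 3851 in cortex KI replicate 4 at PWK 14 against 3525 to 3548 in the others, and 4269 in hippocampus WT replicate 1 at PWK 14 against 4089 to 4104. In cortex KI at PWK 14, *Hnrnpdl* read 6354 in replicate 4 against 5657 to 5744, and *Hnrnpf* read 2253 in replicate 2 against 2015 to 2027. In WT hippocampus, *Mbnl1* read 2291 in replicate 1 at PWK 7 against 2623 to 2664, and *Srsf9* read 994 in replicate 3 at PWK 14 against 1098 to 1109.8.

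The KI effect on *Celf3* at PWK 28 differed between the regions by a test of the difference itself, by 0.32 on the log2 scale (hippocampus minus cortex, adjusted p = 0.0099).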

How the results depend on the processing

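With a pseudocount of 10 every count of called splicing regulators stayed within 1.5 times its main value. Counts that moved further were few. KI against WT in cortex at PWK 14 (1 gene) gave 0 with no filter on low values, 0 with equal library totals and 2 with all 64 libraries in 1 fit. In hippocampus at PWK 14 (10 genes) the fit of all 64 libraries gave 23 (3 higher, 20 lower). The change of the KI effect from PWK 14 to PWK 28 (0 genes) gave 1 in cortex with equal totals, and 6 in cortex and 1 in hippocampus with all 64 libraries. The difference of the KI effect between regions gave 2 at PWK 14 with all 64 libraries (main 0), and at PWK 28 (main 1) 2 with a mean of at least 100, 2 with equal totals, 2 after correction for GC content and length and 5 with all 64 libraries. Equal totals gave 21 calls in cortex and 22 in hippocampus at PWK 28, all lower, so that the calls of higher *Hnrnpll*, *Elavl4* and *Nova2* were lost. *Hnrnpr* between WT regions at PWK 7 reversed to -0.069 after correction for GC content and length. The cause was not tested in any of these cases. None of the counts under alternative fits is set beside the share of all genes called in the same fit. A higher or lower count may therefore go with more or fewer calls over all genes. Leaving out 1 library gave 0 to 1 calls in cortex and 1 to 10 in hippocampus at PWK 14, 13 to 22 in cortex and 11 to 17 in hippocampus at PWK 28 (11 without WT replicate 2), 11 to 23 between WT regions at PWK 1, 0 to 5 and 0 to 1 for the change of the KI effect with age in cortex and hippocampus, and 1 to 4 for its difference between regions at PWK 28.

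The labels do not say that a replicate number marks a mouse or litter. Same-numbered KI and WT libraries correlated above 0.1 in 10 of 32 pairs (12 correlated best with their own number), and those numbers were not taken as pairs. Between the regions, which share their mice, the counts were 17 and 19 of 32, and they differed by group. All 4 pairs were above 0.1 and best with their own number in WT at PWK 1 and in KI at PWK 28, and 0 of 4 in WT at PWK 7 and 28. With the block, WT regions at PWK 1 gave 19 calls. With the number as a replicate block, 4 genes were called in hippocampus at PWK 14 and 5 differed between regions in their KI effect at PWK 28, while cortex and hippocampus at PWK 28 gave 17 and 15. Over single genes called in a comparison, 3889 of the alternative values kept their direction and side of the threshold, 378 fell short of it and 1 reversed, and 221 values of genes not called passed it. Depth is known only as normalised totals, so counting error could not be separated from the spread between mice.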

Other observations

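Summed per kilobase over a family, the levels of the regulators shifted with age in WT mice in both directions. The 2 Mbnl genes together gave 824 ± 67.5 normalised counts per kilobase (mean ± SD, n = 4) at PWK 1 and 1740.2 ± 59.1 at PWK 7 in cortex, against 901 ± 54.8 and 1912 ± 71.1 in hippocampus. Over the same interval the 4 Elavl genes went from 5065 ± 266 to 3219 ± 79.2 in cortex and in hippocampus from 4417 ± 124 to 2965 ± 152. The 3 Ptbp genes went from 1675 ± 42.8 to 1170.3 ± 35.2 in cortex and in hippocampus from 1689 ± 28.1 to 1400.0 ± 73.2. At PWK 28 the 20 Hnrnp genes together gave 28593 ± 977 in KI cortex and 31292 ± 840 in WT cortex, and 30437 ± 852 and 33344 ± 642 in hippocampus. The 2 Tra2 genes gave 1112 ± 95.4 in KI and 1403 ± 30.7 in WT cortex, and 1114 ± 66.5 and 1474 ± 43.3 in hippocampus. In these Hnrnp and Tra2 sums the genotypes did not overlap. The 2 Nova genes were at 592 ± 13.9 in KI and 550 ± 8.81 in WT hippocampus at PWK 28, with KI above WT in every library. As given above, the *Nova2* call in this comparison was lost with equal library totals and without any library but KI replicate 1. The Nova sum was not recomputed with equal totals. These sums weigh the abundant genes most and were not tested.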
